A study of Mus musculus with 24 samples.

Results

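The Myc, Max and Mxd network was read as 10 genes, Myc, Mycn, Mycl, Max, Mxd1, Mxd3, Mxd4, Mxi1, Mnt and Mlx, chosen by gene symbol and found by Ensembl identifier among the 35275 genes of the table of cultured cells and the 54532 genes of the table of tumors. All 10 genes were listed in both tables. RNA-seq was available for D2A1 and D2.1, mouse mammary tumor cell lines of the D2 hyperplastic alveolar nodule series from female BALB/c mice. D2A1 grows rapidly, and D2.1 forms tumors after a latent phase. Each line was sequenced in culture (3 libraries a line) and as mammary fat pad tumors in female mice of immunocompetent BALB/c (4 tumors a line) or of SCID-beige (5 tumors a line), a strain with mutations in Prkdc and Lyst that lacks functional T and B cells and has impaired natural killer cells. Tumors were taken at a volume of about 500 mm3. No group received a drug or carried an engineered allele according to the labels, and each line stands for 1 cell line only. A tumor library holds host cells beside the implanted line, so in these bulk samples fewer cells of a type and less RNA per cell cannot be told apart.

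Proteins of this network bind DNA in pairs through a basic helix-loop-helix leucine zipper domain. Myc, Mycn and Mycl pair with Max on E-box sequences and recruit acetyltransferases and elongation factors, and they are known for driving ribosome synthesis, nucleotide metabolism and cell cycle entry. Mxd1, Mxd3, Mxd4, Mxi1 and Mnt compete for Max and bring the Sin3 and histone deacetylase corepressor to the same sites, and several of them are known from differentiating or resting cells. Mlx resembles Max, pairs with some Mxd proteins, and with Mlxip or Mlxipl forms the glucose-sensing arm of the network.

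Because the members bind a shared site, the sites in their own promoters are shown. The motif searched was CACGTG, which reads the same on both strands, in windows of 300 bases that run from 250 bases before to 50 bases after a start site, from RefSeq on GRCm38.p6. Of 32851 windows of that length, 7.15% held it, and of the 27025 genes with a window, 8.09% held it in at least 1. A window was given for 9 of the 10 members, all but Myc, and 4 members had a match, namely Max, Mxd4, Mnt and Mlx. The match in capitals is printed with 12 bases on each side, on the strand of the gene, for Max at chr12:76962234-76962263 (minus strand), Mxd4 at chr5:34187912-34187941 (minus strand), Mnt at chr11:74830789-74830818 (plus strand) and Mlx at chr11:101087238-101087267 (plus strand).
Max: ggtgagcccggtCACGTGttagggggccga
Mxd4: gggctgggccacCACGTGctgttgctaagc
Mnt: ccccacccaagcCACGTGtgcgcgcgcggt
Mlx: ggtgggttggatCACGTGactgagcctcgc
These are matches of letters, and binding was not measured.

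Libraries held between 16837260 and 24818234 counts in culture and between 13566949 and 18355153 in tumors. Levels are given as CPM (counts scaled to library size) after TMM scaling within each table. The 2 tables were made with different gene models (the length behind the Myc values was 2390 bases in the culture table and 1694 bases in the tumor table), so levels in culture and in tumors are set side by side and were not tested. Fold changes and adjusted p-values come from edgeR's quasi-likelihood test over all genes that passed its filter on low counts, with Benjamini-Hochberg adjustment and a threshold of 0.05. In D2.1 BALB/c tumors, replicate 1 held transcripts of milk proteins. Its 5 lactation markers summed to 390.6 CPM, against at most 0.77 CPM in the other 3 tumors of the group. Replicate 4 had the highest sum of 5 skin keratinocyte markers, 125.7 CPM. Sums of 5 skeletal muscle markers reached 341.9 CPM in D2.1 BALB/c replicate 1, and 255.0 and 199.3 CPM in D2.1 SCID-beige replicates 4 and 5. Replicates 1, 2 and 3 of that SCID-beige group had 1.44 to 18.1 CPM. In the same group replicate 4 had the highest sum of 7 mammary epithelium markers, 1249 CPM. Cultured D2.1 cells held 2345 to 4649 CPM of these markers, and cultured D2A1 cells 130.6 to 340.8 CPM. Summed levels of 5 fibroblast markers lay between 6202 and 14570 CPM in D2.1 tumors and between 1161 and 3023 CPM in D2A1 tumors, but D2.1 cells in culture already held 1841 to 2628 CPM of them. Host cell markers differed between the lines for some cell types and not for others. Summed levels of 6 macrophage markers overlapped in both hosts. They were 1228 to 2302 CPM in D2A1 and 1593 to 1906 CPM in D2.1 tumors of BALB/c, and 714.9 to 1279 CPM and 835.4 to 1857 CPM in SCID-beige. Of these 6 markers, 1 passed as higher in D2.1 in BALB/c and 3 in SCID-beige. No adipocyte marker passed in either host. Summed levels of 7 T cell markers were 63.4 to 178.0 CPM in D2.1 and 9.28 to 26.7 CPM in D2A1 tumors of BALB/c, and 5.23 to 14.7 CPM and 3.28 to 5.91 CPM in SCID-beige. All 7 passed as higher in D2.1 in BALB/c. In SCID-beige only 2 of the 7 had enough counts to be tested, and they went opposite ways. There 1 passed as higher in D2.1 (Cd4) and 1 as lower, so the sums in SCID-beige give no common direction. Summed levels of 5 endothelial markers were 75.2 to 123.3 CPM in D2.1 and 195.0 to 259.3 CPM in D2A1 tumors of BALB/c, and 51.3 to 87.0 CPM and 174.6 to 253.2 CPM in SCID-beige. The part of these cells in the values of the members and lists was not tested.

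Myc, on chromosome 15 (61985391 to 61990374, GRCm38, plus strand), was lower in D2.1 than in D2A1 in all 3 settings. In culture it measured 255.9, 258.0 and 340.3 CPM in D2A1 libraries and 99.7, 90.8 and 93.8 CPM in D2.1 libraries. In BALB/c tumors it measured 346.9, 331.2, 265.2 and 243.5 CPM in D2A1 and 70.2, 98.1, 60.4 and 55.0 CPM in D2.1. In SCID-beige tumors it measured 256.5, 299.4, 262.1, 244.1 and 513.1 CPM in D2A1 and 73.6, 87.7, 131.8 and 93.2 CPM in D2.1 replicates 1, 2, 3 and 5. D2.1 replicate 4 had the highest level of its group, from 3554 Myc counts against 1199 to 2290 in the other 4 tumors. Every D2.1 library was below every D2A1 library of the same setting, and the closest approach was D2.1 replicate 4 in SCID-beige. How many of all genes were likewise without overlap was not counted. A lack of overlap is therefore only a description, here and for the members below. The log2 fold change of D2.1 over D2A1 was -1.59 (SE 0.146, adjusted p = 4.66e-05 by edgeR) in culture (3.004-fold lower). It was -2.06 (SE 0.21, adjusted p = 5.41e-05 by edgeR) in BALB/c tumors and -1.39 (SE 0.293, adjusted p = 0.00257 by edgeR) in SCID-beige tumors. Among all genes tested, 44.9% passed the threshold between the lines in culture, 32.6% in BALB/c tumors and 32.1% in SCID-beige tumors. Of the 9 members tested in each setting, 6 passed in culture, 3 in BALB/c tumors and 3 in SCID-beige tumors, so in tumors the share of members was near that of all genes. A further fit, not planned beforehand, left out D2.1 BALB/c replicates 1 and 4, which had the highest sums of lactation and skin keratinocyte markers. The source of those transcripts was not tested. In this fit Myc passed again between the lines in BALB/c, with a log2 fold change of -1.90 (adjusted p = 0.00215 by edgeR). Mxd1 (0.95, adjusted p = 0.0306) and Mxd4 (1.501, adjusted p = 0.00107) passed again as well. Replicates 4 and 5 of D2.1 in SCID-beige were left out only singly.

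The relatives Mycl and Mycn were far below Myc. Mycl measured 6.63, 5.67 and 2.66 CPM in cultured D2A1 and 0.435, 0.310 and 0.214 CPM in cultured D2.1, where it had 4 to 8 counts a library. The groups did not overlap, and the log2 fold change was -3.94 (SE 0.473, adjusted p = 0.000226 by edgeR). Mycl passed the filter on low counts only through the D2A1 libraries, so the size of this fold change is uncertain. With at least 10 counts required in every library it could not be tested in culture. In BALB/c tumors Mycl overlapped between the lines, with 2.78 to 8.39 CPM in D2A1 and 1.93 to 7.71 CPM in D2.1, and the log2 difference was 0.04 (SE 0.46, adjusted p = 0.955 by edgeR). In SCID-beige tumors it was 3.30 to 5.17 CPM in D2A1 and 0.944 to 4.18 CPM in D2.1, with a log2 difference of -1.09 (SE 0.403) that missed the threshold in the edgeR test (adjusted p = 0.0539). With the replicate number as a block the SCID-beige value was -1.26 (adjusted p = 0.0442), and without D2.1 replicate 4, the tumor with the highest Mycl in its group, it was -1.59 (adjusted p = 0.00352). Mycn, the neuronal relative, had a count of 0 in all 6 cultured libraries, which allows up to 0.121 to 0.178 CPM a library. In tumors it had 0 to 19 counts, and it stayed below the filter in the comparisons of 2 groups. Exact permutation tests of its mean log2 CPM (2-sided) gave p = 0.829 between the lines in BALB/c and p = 0.262 in SCID-beige, and the smallest p these designs allow is 0.0286 and 0.00794.

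**Figure D1:**
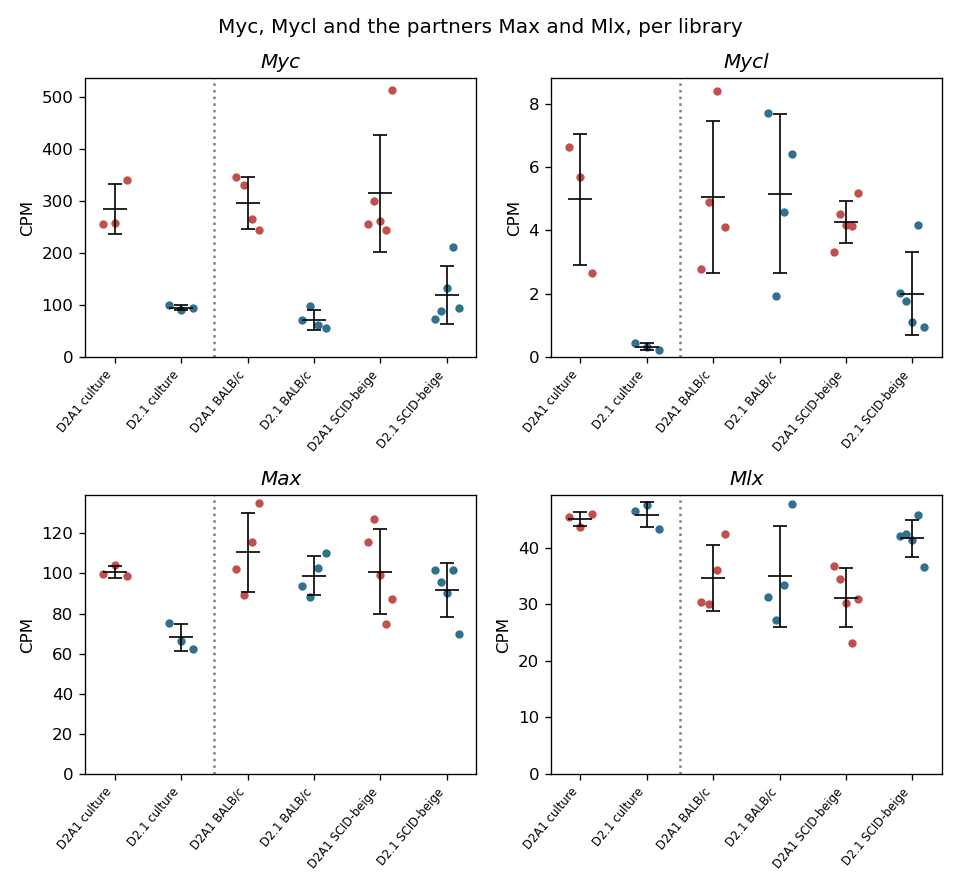
Levels of Myc, Mycl, Max and Mlx (CPM, vertical axis from 0) in each library of the 6 groups (horizontal axis), with D2A1 in red, D2.1 in blue and the group mean ± SD in black. A dotted line parts the 2 tables. Myc is lower in every D2.1 library than in every D2A1 library of the same setting, while Mycl is separated between the lines in culture and overlaps in BALB/c tumors.

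Max, the shared partner, differed in culture only by a small amount. It measured 99.6, 104.0 and 98.7 CPM in D2A1 and 75.2, 66.5 and 62.4 CPM in D2.1, with no overlap and a log2 fold change of -0.57 (SE 0.117, adjusted p = 0.00416 by edgeR). In tumors the lines overlapped, with 74.8 to 135.2 CPM in D2A1 and 69.6 to 110.3 CPM in D2.1. The log2 difference was -0.16 (SE 0.16, adjusted p = 0.49 by edgeR) in BALB/c and -0.14 (SE 0.169, adjusted p = 0.579) in SCID-beige. Mlx was level between the cultured lines, at 43.6 to 46.0 CPM in D2A1 and 43.3 to 47.5 CPM in D2.1. In SCID-beige tumors Mlx measured 23.2 to 36.9 CPM in D2A1 and 36.6 to 45.8 CPM in D2.1, overlapping by a narrow margin, and the log2 difference of 0.42 (SE 0.158) missed the threshold (adjusted p = 0.0574 by edgeR).

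Mxd4, a Max partner that opposes Myc, was higher in D2.1 in all 3 settings. In culture it measured 10.8, 10.8 and 36.9 CPM in D2A1 and 46.6, 47.0 and 147.9 CPM in D2.1. The groups did not overlap, but replicate 3 stood above the others in both lines. The log2 fold change was 2.04 (SE 0.603, adjusted p = 0.0234 by edgeR), and without replicate 3 of both lines it was 2.11 (adjusted p = 3.85e-09). It lost the call when D2.1 replicate 3 (1.26, adjusted p = 0.0676), D2A1 replicate 1 (adjusted p = 0.0613) or D2A1 replicate 2 (adjusted p = 0.0627) was left out alone. In BALB/c tumors Mxd4 measured 81.8, 98.0, 114.0 and 102.0 CPM in D2A1 and 271.8, 292.0, 271.2 and 323.0 CPM in D2.1. These groups were far apart, with a log2 fold change of 1.56 (SE 0.143, adjusted p = 2.46e-05 by edgeR). In SCID-beige tumors it measured 155.9, 177.4, 143.6, 110.8 and 127.6 CPM in D2A1 and 306.2, 279.8, 174.5, 152.4 and 234.5 CPM in D2.1. Here D2.1 replicates 3 and 4 fell within the range of D2A1, and the log2 fold change was 0.68 (SE 0.2, adjusted p = 0.019 by edgeR). The call was lost without D2.1 replicate 1 (adjusted p = 0.0701), D2.1 replicate 2 (adjusted p = 0.0633) or D2A1 replicate 4 (adjusted p = 0.0518).

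Mxd1, known from terminally differentiating cells, was higher in D2.1 tumors of both hosts. In BALB/c it measured 30.2, 20.2, 23.6 and 19.0 CPM in D2A1 and 50.5, 38.0, 52.7 and 37.7 CPM in D2.1. In SCID-beige it measured 20.5, 18.5, 23.6, 34.9 and 28.1 CPM in D2A1 and 38.6, 37.4, 39.0, 38.1 and 35.7 CPM in D2.1. The lines did not overlap in either host, with D2A1 replicate 4 in SCID-beige just under the lowest D2.1 tumor. The log2 fold change was 0.95 (SE 0.206, adjusted p = 0.00552 by edgeR) in BALB/c and 0.59 (SE 0.182, adjusted p = 0.0236) in SCID-beige. The SCID-beige call was lost when D2.1 replicate 1 (adjusted p = 0.0565), D2.1 replicate 2 (0.0512), or D2A1 replicate 1 (0.0787), 2 (0.0663) or 3 (0.056) was left out. Mxd1 is also abundant in neutrophils, and 6 neutrophil markers summed to 26.5 to 45.5 CPM in D2A1 and 58.8 to 89.4 CPM in D2.1 tumors of BALB/c, and to 31.3 to 158.5 CPM and 40.3 to 129.1 CPM in SCID-beige. Their part in the Mxd1 difference was not tested. In culture, where Cxcr2, Retnlg and Ly6g were at 0 in all 6 libraries, Mxd1 measured 3.92, 4.195 and 9.63 CPM in D2A1 and 9.30, 8.49 and 14.6 CPM in D2.1. Replicate 3 was again the highest of each line, and the log2 difference of 0.86 (SE 0.376) missed the threshold in the edgeR test (adjusted p = 0.0941). The same-numbered cultured libraries deviated together, but replicates 1 and 2 did so about as much across numbers (r = 0.174 and 0.346). With the number as a block the value was 0.93 (adjusted p = 0.000676 by edgeR).

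Mxd3, known from the S phase of the cell cycle, differed little. It measured 22.6, 22.9 and 20.7 CPM in cultured D2A1 and 29.9, 28.8 and 31.2 CPM in cultured D2.1. The groups did not overlap, with a log2 fold change of 0.44 (SE 0.127, adjusted p = 0.0208 by edgeR), a call that was lost without D2.1 replicate 1, D2A1 replicate 1 or D2A1 replicate 2 (adjusted p = 0.0547, 0.0786 and 0.0633). In tumors Mxd3 overlapped between the lines, at 13.6 to 26.7 CPM in D2A1 and 16.8 to 28.2 CPM in D2.1. Mxi1 went the other way from Mxd4 in culture. It measured 31.1, 30.3 and 31.2 CPM in D2A1 and 9.52, 10.2 and 11.3 CPM in D2.1, with a log2 fold change of -1.58 (SE 0.14, adjusted p = 3.54e-05 by edgeR). In tumors Mxi1 overlapped between the lines, at 55.1 to 105.7 CPM in D2A1 and 45.6 to 105.0 CPM in D2.1. Mnt, the most widely expressed Max partner of the repressing side, measured 36.2 to 38.4 CPM in cultured D2A1 and 39.2 to 46.8 CPM in cultured D2.1. These groups did not overlap either, yet Mnt did not pass the test (log2 difference 0.18, SE 0.126, adjusted p = 0.292 by edgeR). In tumors Mnt lay between 43.0 and 76.9 CPM, with overlapping lines in both hosts.

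**Figure D2:**
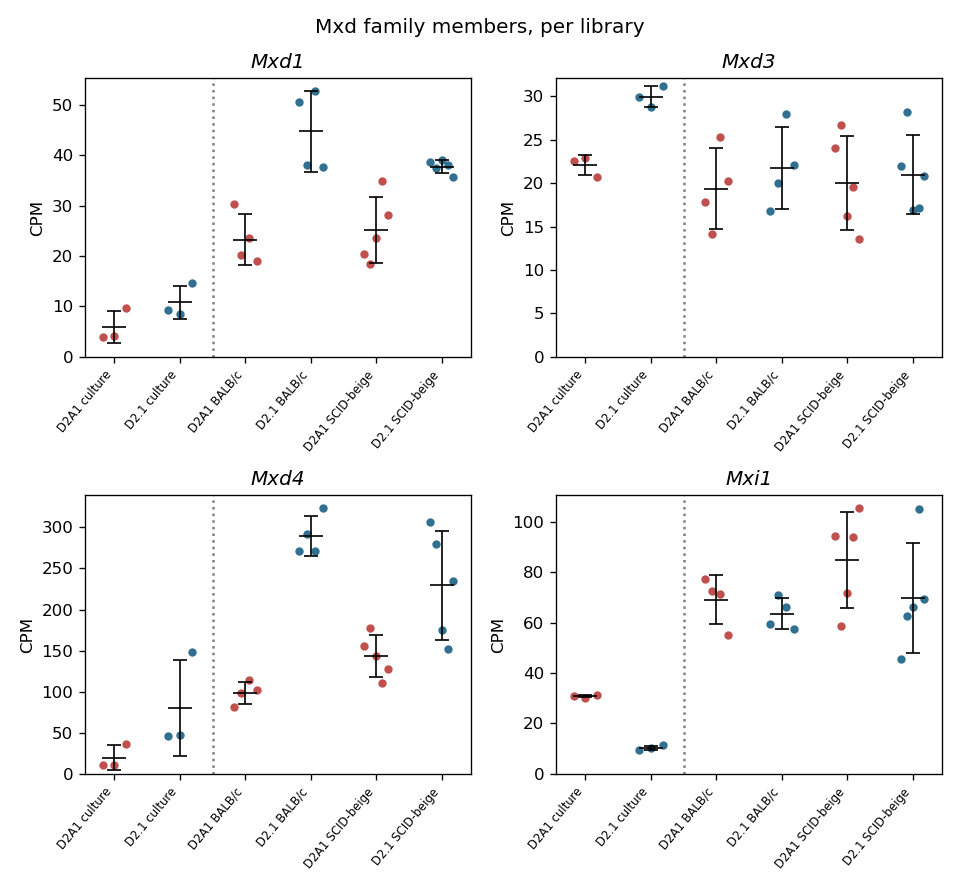
Levels of Mxd1, Mxd3, Mxd4 and Mxi1 (CPM, vertical axis from 0) in each library of the 6 groups, with D2A1 in red, D2.1 in blue and the group mean ± SD in black. Mxd4 is highest in the D2.1 BALB/c tumors (271.2 to 323.0 CPM), and replicate 3 of each cultured line stands above the other 2 for Mxd4 and Mxd1.

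**Figure D3:**
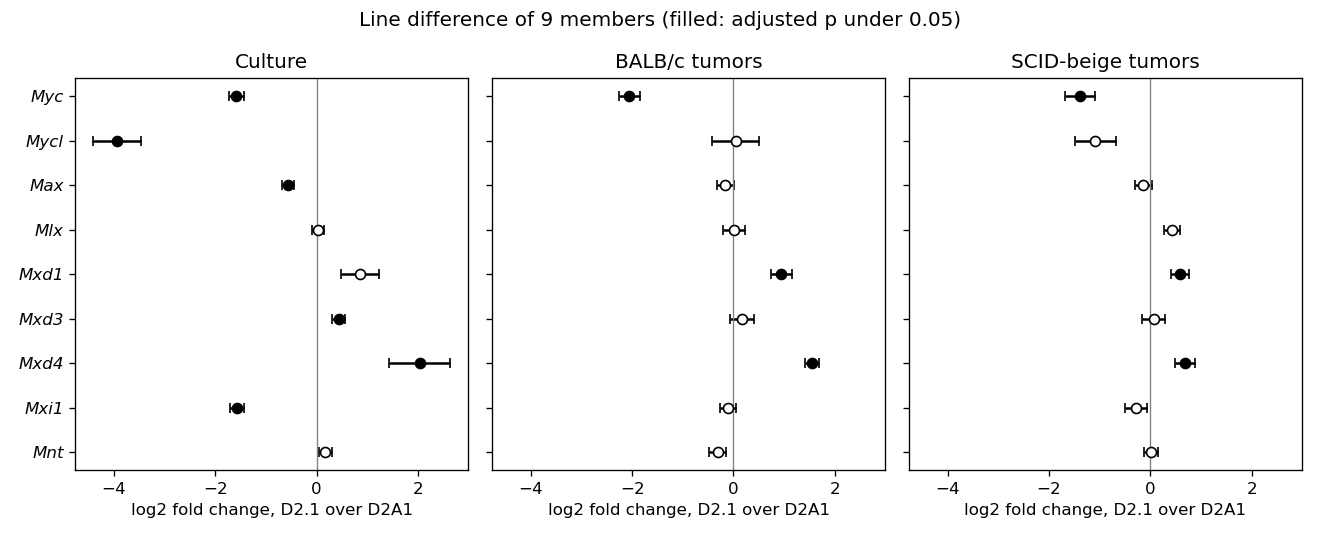
Log2 fold change of D2.1 over D2A1 (horizontal axis) with its SE for the 9 members tested, in culture, BALB/c tumors and SCID-beige tumors. Filled points passed an adjusted p of 0.05. Myc lies to the left and Mxd4 to the right in all 3 panels.

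Between hosts, none of the 9 members passed the edgeR test between BALB/c and SCID-beige in D2.1 tumors, where 0.891% of all genes did, or in D2A1 tumors, where 1.17% did, and DESeq2 called none of them either. At an unadjusted p under 0.05 stood Myc and Mycl in D2.1 tumors, as did 1489 of all 14929 genes tested, and Mxd4 in D2A1 tumors, as did 1472 of 14572. Myc in D2.1 tumors had a mean of 70.9 ± 19.2 CPM (SD, n = 4) in BALB/c and 119.7 ± 55.9 CPM (SD, n = 5) in SCID-beige, with overlapping tumors and a log2 difference of -0.73 (SE 0.303, unadjusted p = 0.0324, adjusted p = 0.415 by edgeR). For Mycl in D2.1 tumors the log2 difference of BALB/c over SCID-beige was 1.39 (SE 0.517, unadjusted p = 0.0193, adjusted p = 0.336 by edgeR). For Mxd4 in D2A1 tumors the log2 difference of BALB/c over SCID-beige was -0.53 (SE 0.164, unadjusted p = 0.00719, adjusted p = 0.188 by edgeR). The line difference was set against the host in an interaction fit over all 18 tumors, in which 0.0187% of all genes and none of the 10 members passed. The difference in the Mxd4 line effect, BALB/c minus SCID-beige, was 0.87 (SE 0.265, unadjusted p = 0.00388, adjusted p = 0.344 by edgeR). That of Myc was -0.67 (SE 0.397, adjusted p = 0.71).

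Levels per length compare the members with each other, and the FPKM values (scaled to gene length and library size) were used for this within one table. In D2A1, Myc led the 10 members, with a mean of 125.1 FPKM in culture, 181.4 FPKM in BALB/c and 188.2 FPKM in SCID-beige tumors. Myc led in cultured D2.1 as well, with a mean of 38.0 FPKM, where Max had 32.4 FPKM and Mxd4 20.5 FPKM. In D2.1 tumors of BALB/c Myc stood behind both Mxd4 and Max in every tumor, with a mean of 41.4 FPKM, where Mxd4 had 109.3 FPKM. In SCID-beige it stood behind them by its mean, 68.9 FPKM, where Mxd4 had 85.5 FPKM, but not in every tumor. Myc was above Mxd4 in replicate 3 (78.7 against 67.6 FPKM) and above both Mxd4 and Max in replicate 4 (120.1 against 56.0 and 102.2 FPKM). As a description of the balance, Myc was divided by the summed FPKM of Mxd1, Mxd3, Mxd4, Mxi1 and Mnt. The ratio was 3.47 to 3.76 in cultured D2A1 and 0.548 to 0.994 in cultured D2.1. In tumors it was 1.29 to 1.86 in D2A1 and 0.169 to 0.311 in D2.1 in BALB/c, and 1.10 to 2.42 and 0.223 to 0.891 in SCID-beige. The divisor differed as well, since the summed antagonists of BALB/c tumors were 111.3 to 118.9 FPKM in D2A1 and 182.5 to 194.5 FPKM in D2.1. Mxd4 alone made up 53.1% to 64.5% of that sum in D2.1 BALB/c tumors and 28.4% to 36.8% in D2A1 BALB/c tumors. This is RNA, and protein levels were not measured.

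**Figure D4:**
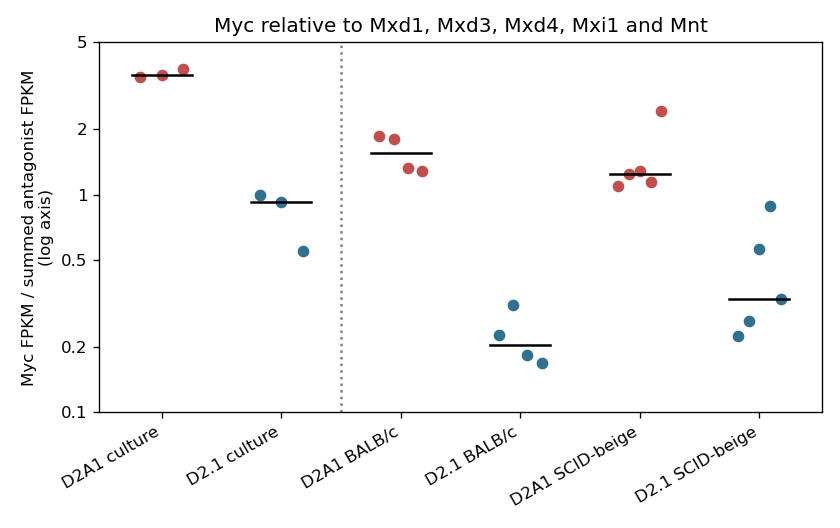
Myc FPKM divided by the summed FPKM of Mxd1, Mxd3, Mxd4, Mxi1 and Mnt (log axis) in each library of the 6 groups, with D2A1 in red, D2.1 in blue and a line at the median. In each setting all D2.1 libraries lie below all D2A1 libraries, with 0.169 to 0.311 in D2.1 and 1.29 to 1.86 in D2A1 tumors of BALB/c.

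Over all genes tested, 20.7% were lower and 24.2% higher in D2.1 in culture, 15.8% and 16.8% in BALB/c tumors, and 14.8% and 17.2% in SCID-beige tumors. Without replicate 3 of both cultured lines 61.9% of all genes passed in culture (29.8% lower, 32.1% higher), and without replicates 1 and 4 of D2.1 21.3% passed in BALB/c (10.2% lower, 11.1% higher). The counts of the gene lists that follow are read against these shares, and none was tested against other genes. The lists were written with earlier results of these data known, so a share above that of all genes may be partly built in. Genes known to be induced by Myc were lower in D2.1 where they passed. Of 37 such genes, all tested, 12 were lower and 0 higher in culture, 23 lower and 0 higher in BALB/c tumors, and 15 lower and 0 higher in SCID-beige tumors. These calls, all of them lower, made up 32.4% of the list in culture, 62.2% in BALB/c and 40.5% in SCID-beige. Of all genes, 20.7%, 15.8% and 14.8% were called lower, and 44.9%, 32.6% and 32.1% were called in either direction. Their median log2 fold change was -0.28, -0.73 and -0.39, beside -0.02, -0.02 and 0.02 over all genes. Without replicate 3 of both cultured lines 19 were lower and 1 higher in culture. That is 54.1% of the list, beside 61.9% of all genes called in either direction and 29.8% called lower. Without replicates 1 and 4 of D2.1 18 were lower and 0 higher in BALB/c. Odc1, the first enzyme of polyamine synthesis, was lower by a log2 fold change of -1.84 (SE 0.208) in culture, -1.85 (SE 0.166) in BALB/c and -1.14 (SE 0.239) in SCID-beige. Ccnd2, a D-type cyclin, had a log2 fold change of -6.28 (SE 0.214) in culture and -2.21 (SE 0.216) in SCID-beige. Cad, the enzyme that starts pyrimidine synthesis, had -1.14 (SE 0.139) in culture, and Wdr12, a ribosome assembly factor, had -1.41 (SE 0.17) in BALB/c. Tfrc, the transferrin receptor, had -1.49 (SE 0.426) in BALB/c, and Hk2, a hexokinase, had -1.23 (SE 0.288) in SCID-beige. A promoter window was given for 32 of the 37 genes, and 9 of them held CACGTG (28.1%, beside 8.09% of all genes with a window). Of those 9, 1 was lower in culture, 5 in BALB/c and 2 in SCID-beige tumors, with median log2 fold changes of 0.04, -0.43 and -0.31. Of the 23 without it, 10, 15 and 11 were lower, with medians of -0.64, -0.85 and -0.39.

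Of 9 genes known to be repressed by Myc, 6 were higher and 0 lower in culture. In BALB/c 5 were higher and 2 lower, and in SCID-beige 4 higher and 2 lower. The medians were 1.94, 0.84 and 0.44. The share called was 66.7%, 77.8% and 66.7%, beside 44.9%, 32.6% and 32.1% of all genes. Without replicate 3 of both cultured lines 6 were again higher and 0 lower in culture (66.7%, near the 61.9% of all genes). In BALB/c 3 were higher and 2 lower without replicates 1 and 4 of D2.1 (55.6%, beside 21.3%). Gas1, a growth arrest gene, had a log2 fold change of 5.72 (SE 0.359) in culture, 2.75 (SE 0.149) in BALB/c and 2.13 (SE 0.224) in SCID-beige. Ndrg2 had 4.28 (SE 0.709), 1.63 (SE 0.353) and 1.86 (SE 0.472), and Cebpa, a differentiation factor, had 3.39 (SE 0.35), 1.35 (SE 0.217) and 1.27 (SE 0.143). The genes that passed as lower in tumors were Thbs1, which encodes thrombospondin and had -3.89 (SE 0.377) in BALB/c and -4.02 (SE 0.404) in SCID-beige, and the cell cycle inhibitor Cdkn1a, with -1.06 (SE 0.16) and -0.79 (SE 0.237). Both lists hold genes that host cells also express, and the part of the host cells was not tested.

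Of 11 chosen genes within 3 Mb of Myc on chromosome 15, 6 were tested. Of these, 3 were lower in each setting and 1 was higher in culture and in SCID-beige. The genes were picked by name, and not every gene of that stretch was searched. The share called was 66.7% in culture, 50% in BALB/c and 66.7% in SCID-beige, beside 44.9%, 32.6% and 32.1% of all genes. Pvt1, the noncoding gene that starts 47.6 kb after Myc ends, had a log2 fold change of -3.03 (SE 0.203) in culture, -2.64 (SE 0.285) in BALB/c and -1.65 (SE 0.374) in SCID-beige. Fam84b had -5.25 (SE 0.333), -3.24 (SE 0.528) and -2.38 (SE 0.582), and Nsmce2 had -1.32 (SE 0.129), -1.25 (SE 0.178) and -1.29 (SE 0.183). Fam49b was higher in culture (0.42, SE 0.135) and in SCID-beige (0.67, SE 0.187), and had -0.16 in BALB/c, where it did not pass. Trib1 (0.25, -0.12 and 0.10) and Asap1 (-0.34, 0.14 and -0.09) passed in no setting. Without replicate 3 of both cultured lines all 6 passed in culture, with Asap1 at -0.42 and Trib1 at 0.36, so that 4 were lower and 2 higher, beside 61.9% of all genes called. Copy number was not measured.

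**Figure D5:**
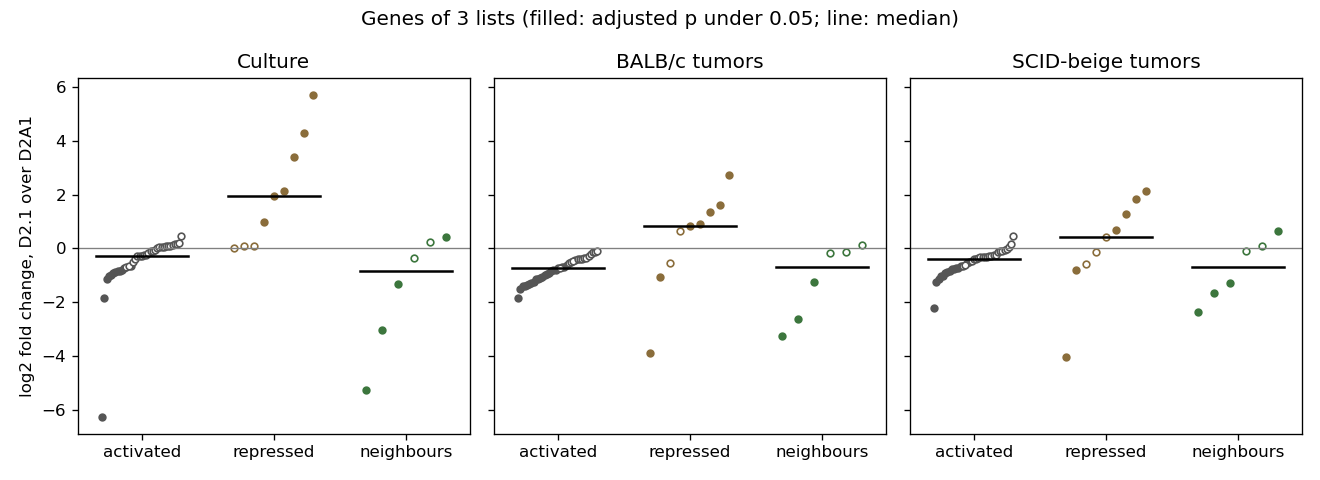
Log2 fold change of D2.1 over D2A1 (vertical axis) for each tested gene of 3 lists, the genes induced by Myc, those repressed by Myc and those beside Myc on its chromosome, in culture, BALB/c tumors and SCID-beige tumors. Filled points passed an adjusted p of 0.05 and black lines are medians, which for the induced genes are -0.28, -0.73 and -0.39.

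Partners of the network were called at shares below or near those of all genes in most settings, when both directions are counted together. Of 12 coactivators of Myc, 1 was higher and 1 lower in culture, 4 were lower in BALB/c and 3 were lower in SCID-beige, with median log2 fold changes of -0.21, -0.25 and -0.08. The share called was 16.7%, 33.3% and 25%, beside 44.9%, 32.6% and 32.1% of all genes. Without replicate 3 of both lines 6 were lower and 2 higher in culture (66.7%, beside 61.9% of all genes). The helicases Ruvbl1 (-1.10, SE 0.164) and Ruvbl2 (-1.30, SE 0.233) and the docking factor Wdr5 (-0.84, SE 0.172) were among those lower in BALB/c. Of 11 genes of the corepressor list, 4 were higher in culture and 0 lower, while 1 was higher and 3 lower in tumors of each host, with medians of 0.26, 0.09 and 0.08. The share called was 36.4% in each setting, below that of all genes in either direction in culture and near it in tumors. With replicate 3 of both lines left out 5 were higher and 3 lower in culture (72.7%, beside 61.9% of all genes), and without replicates 1 and 4 of D2.1 0 were higher and 2 lower in BALB/c (18.2%, beside 21.3% of all genes). Sin3b, a scaffold of that complex, had 0.49 (SE 0.133) in culture but -0.42 (SE 0.145) in BALB/c and -0.57 (SE 0.149) in SCID-beige. Of 11 genes that set Myc protein stability, 4 were lower and 0 higher in each setting, with medians of -0.43, -0.54 and -0.31. That is again 36.4% of the list in each, beside 20.7%, 15.8% and 14.8% of all genes called lower. Without replicate 3 of both lines 8 were lower and 1 higher in culture (81.8%, beside 61.9% of all genes), and without replicates 1 and 4 of D2.1 2 were lower in BALB/c (18.2%, beside 21.3%). Cip2a, which protects Myc from dephosphorylation, had -0.63 (SE 0.11) in culture and -1.56 (SE 0.462) in BALB/c, while Fbxw7, which marks Myc for degradation, had -0.82 (SE 0.153) in SCID-beige. Of the other 3 partners of Max or Mlx, Mlxipl was higher in tumors, by 3.86 (SE 0.831) in BALB/c and 3.25 (SE 1.14) in SCID-beige. Of 4 targets of Mlx with its glucose-sensing partners, 3 were tested. Klf10 was higher in culture (1.34, SE 0.151) and SCID-beige (1.19, SE 0.312), and Arrdc4 in BALB/c (1.14, SE 0.246) and SCID-beige (0.82, SE 0.244). The other tested target, Txnip, passed in no setting (0.17 in culture and 0.55 in SCID-beige). In culture Arrdc4 had -0.95 (SE 0.356, adjusted p = 0.058 by edgeR), and without replicate 3 of both lines it passed as lower there (-1.21, SE 0.333).

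Of 14 proliferation genes, 3 were lower and 1 higher in culture, 10 lower and 0 higher in BALB/c and 3 lower and 0 higher in SCID-beige, with medians of -0.20, -0.75 and -0.26. The share called was 28.6% in culture and 21.4% in SCID-beige, both below that of all genes in either direction, and 71.4% in BALB/c, beside 32.6% of all genes. The SCID-beige calls were all lower, beside 14.8% of all genes called lower there. With replicate 3 of both lines left out 7 were lower and 3 higher in culture (71.4%, beside 61.9% of all genes), and without replicates 1 and 4 of D2.1 7 were lower in BALB/c (50%, beside 21.3%). Rrm2, a subunit of ribonucleotide reductase, had the lowest value in each setting, at -1.07 (SE 0.188), -1.86 (SE 0.161) and -1.37 (SE 0.181). Within the 9 tumors of one line, 6 relations were computed, of Myc with the mean of its induced genes, of Mxd3 with the proliferation list and of Mxd1 with the neutrophil list. None passed in an exact permutation test after Benjamini-Hochberg adjustment over the 6 (lowest adjusted p = 0.187).

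For Myc and its induced genes in D2.1 tumors, Pearson's r was 0.71 (exact permutation p = 0.0935) and Spearman's rho 0.30 (exact permutation p = 0.437), and r was 0.19 without the 2 tumors farthest from the median of the induced genes. On FPKM r was 0.73, and -0.53 without 2 tumors, so the relation rests on those tumors. In D2A1 tumors r was -0.11 (exact permutation p = 0.853) and rho 0.10 (exact permutation p = 0.81). The lowest unadjusted p was that of Mxd1 with the neutrophil list in D2A1 tumors, with r = 0.65 (exact permutation p = 0.0706), rho 0.47 (exact permutation p = 0.212) and r = 0.16 without 2 tumors, and in D2.1 tumors r was -0.24 (exact permutation p = 0.56). For Mxd3 with the proliferation list r was 0.04 in D2A1 (exact permutation p = 0.909) and -0.55 in D2.1 tumors (exact permutation p = 0.0874). On FPKM the lowest adjusted p of the 6, that of Mxd3 in D2.1 tumors, was 0.0683 (r = -0.64, exact permutation).

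Over all 24 libraries and 10735 protein-coding genes with a mean of at least 5 CPM, the genes whose log2 CPM was most like that of Myc were Ppp2r3c (r = 0.93), Cfap300 (0.92), Zbtb10 (0.92), Cd109 (0.91) and Plcb3 (0.91), and the least like it were Gstt3 (-0.95), Insyn1 (-0.94) and Cx3cl1 (-0.93). The libraries share 2 lines and 2 tables, and the values are a description only. Among the members, Max had r = 0.33 and Mxd4 -0.52.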

How the data were processed

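RNA was sequenced from cultured D2A1 and D2.1 cells and from their tumors. The authors' pipeline aligned the reads to mm10 with STAR, per the labels; the counter, its version and its strand setting are not given in the sources used here. The deposited files hold raw counts per gene and FPKM per gene, in one table for cells and one for tumors. Groups were taken from the sample labels. Members and lists were chosen with earlier results of these data known.

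Counts were tested with edgeR 4.0.16 (R 4.3.3; TMM, filterByExpr, robust quasi-likelihood fit) within the groups compared, with Benjamini-Hochberg adjustment over all genes tested. The procedure was tested on simulated data. Log2 CPM used a prior count of 2. Permutation tests used scipy 1.17.1. The text names all 10 members, and of the called genes of each other list at most the 3 largest rises and falls per line comparison. Some listed genes that did not pass are named as well. Alternatives were DESeq2 1.42.0, its size factors, other filters, a replicate block, single libraries left out, one fit of all tumors and FPKM. A count floor of 3 was used for counts of 0, and it covers counting error only. The labels do not say that replicate libraries of cultured cells came from separate cultures, so p-values there measure the spread between these samples. All 38 pairs of replicates differed by more than sampling noise (chi-square per degree of freedom of at least 5.20).

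Same-numbered libraries of the 2 lines deviated from their group means together in culture (r = 0.183 to 0.483 over 3 pairs). They did so by a narrow margin in BALB/c tumors (r = 0.103 to 0.492 over 4 pairs). Pairs of unlike number reached r = 0.346 in culture and 0.414 in BALB/c. Only 4 of 6 libraries in culture and 3 of 8 in BALB/c were most like their own number. The labels name no shared day or batch. In the other comparisons at least 1 same-numbered pair had a negative r.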

Additional observations from a re-analysis of the deposited data

Results flagged for a closer look

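In 40 sets of values (10 members in 4 tumor groups), 2 tumors stood apart from the rest of their group by Dixon's criterion, which flags about 5% of groups by chance. Myc in D2A1 SCID-beige replicate 5 was 513.1 CPM, with a gap to the next tumor of 0.795 of the range of its group. Mycn in D2.1 SCID-beige replicate 5 was 1.20 CPM, from 19 counts, with a gap of 0.711 of the range.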

How the results depend on the processing

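The 12 calls of members between the lines had 164 alternative values, of which 149 stayed past the threshold, 15 missed it and 0 changed sign. Mxd4 in culture missed it without a filter on low counts (adjusted p = 0.166). Mxd1 in culture passed without D2A1 replicate 3 (1.41) and without replicate 3 of both lines (1.13, adjusted p = 0.000155, chosen after seeing the data). Mycl in SCID-beige tumors passed with DESeq2 (-1.10, adjusted p = 0.0262) and with at least 10 counts in every library (-1.08, adjusted p = 0.0365). Members called in SCID-beige tumors numbered 1 to 4 with single libraries left out (1 without D2.1 replicate 1 or 2).

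Signs changed for differences that had not passed. Between the lines in BALB/c tumors, Mlx was -0.0013 without a filter, -0.0027 with the replicate block, -0.21 without replicates 1 and 4 of D2.1, and -0.17 to 0.11 with single libraries left out, and Mycl was -0.011 with the block, -0.65 without those 2 tumors and -0.22 to 0.40. In SCID-beige, Mnt was -0.0995 to 0.0744 and Mxd3 -0.0956 to 0.152. Between hosts in D2.1 tumors, Mxd3 was -0.0648 to 0.212 and Mxi1 -0.23 to 0.10, or 0.00075 without replicates 1 and 4 of D2.1 BALB/c. In D2A1 tumors, Myc was 0.15 with the block and -0.17 to 0.16, Max -0.0101 to 0.228, Mxd1 -0.26 to 0.0401, Mxd3 -0.23 to 0.0838 and Mycl -0.15 to 0.44. In the interaction, Max was 0.0403 with DESeq2, 0.0407 with its size factors, 0.0067 with at least 10 counts in every library and -0.12 to 0.11, and Mxd3 -0.0512 to 0.248. The relation of Mxd3 with the proliferation list in D2A1 tumors was r = -0.21 on FPKM. The cause was not tested.

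Counts of all genes called between hosts moved. For D2.1 tumors they were 133, and 588 with DESeq2, 275 without a filter, 71 with at least 10 counts, 14 with the block, 261 in one fit of all tumors, 11 without replicates 1 and 4 of BALB/c, and 26 to 314 with single libraries left out. For D2A1 tumors they were 170, and 517 with DESeq2, 0 with the block and 27 to 172. For the interaction they were 3, and 105 with DESeq2, 6 with its size factors, 7 without a filter, 1 with at least 10 counts and 0 to 12. None of these settings called a member between hosts. The block, where numbers pair libraries by no label, changed no call of a member other than Mxd1 in culture and Mycl in SCID-beige tumors. Mycn, at most 19 counts a library, is limited by depth.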
